A study of Mus musculus with 8 samples.

Results

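Pla2g2a encodes the group IIA secreted phospholipase A2, and its level in mouse colon is described here across 2 inbred strains and 2 Il10 genotypes. It was found by taking every probe set annotated to the symbol Pla2g2a, which gave 1 probe set of the 12422 on the array and 1 gene of the 8251 with a probe set of their own. RNA of whole colon was hybridised to 8 Affymetrix MG_U74Av2 arrays, 1 array for each pool of 4 or 5 animals, with 7 µg of RNA from each animal. The 4 groups, with 2 pools each, were C3H/HeJBir-Il10tm1Cgn (here C3H/HeJBir Il10-null), C3H/HeJBir, C57BL/6J-Il10tm1Cgn (here C57BL/6J Il10-null) and C57BL/6J. The lines without the allele are called wild type for Il10. C3H/HeJBir pools held 4 animals, except the sample 1 Il10-null pool with 5, and C57BL/6J pools held 5. The allele Il10tm1Cgn is a targeted inactivation of interleukin 10, a cytokine that restrains inflammation, and is absent from both wild-type groups. An age, 4 weeks, is stated for 1 pool, C57BL/6J wild type sample 2. The sources used here do not state the sex of the animals. The pools of a group are called sample 1 and sample 2, as in the labels, and p-values rest on the scatter of pools rather than of single animals. The probe set of Il10 itself read 28.3 and 35.4 in C3H/HeJBir Il10-null and 51.7 and 22.0 in C57BL/6J Il10-null, against 5.43 and 10.9 in C3H/HeJBir wild type and 9.70 and 7.34 in C57BL/6J wild type. The readings were thus higher in the Il10-null pools of both strains. The mean of this probe set lay under 37.0, the mean intensity required for testing, so the difference was not tested. The position of its probes relative to the inactivating change is not known here, so this reading does not check the labels.

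The enzyme is a small secreted protein that cleaves the fatty acid at the middle position of phospholipids. It releases lysophospholipids and free fatty acids, arachidonic acid among them, from which prostaglandins and leukotrienes are made. In mouse intestine it is known as a product of Paneth cells, the secretory cells at the crypt base of the small intestine, and as a protein that kills Gram-positive bacteria by attacking their membranes. The gene is also known as Mom1, a modifier of intestinal tumour number in mice with a mutant Apc gene. C57BL/6 mice carry a frameshift that inactivates the gene, whereas C3H mice carry an intact reading frame. RefSeq's table of the C57BL/6J genome (GRCm38.p6) places Pla2g2a on chromosome 4 and lists it as a transcribed pseudogene. The sources used here do not say where the probes lie relative to the frameshift.

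Pla2g2a was far higher in C3H/HeJBir than in C57BL/6J colon. In C3H/HeJBir Il10-null colon its intensity, in the deposited linear units, was 5446 in the sample 1 pool and 1283 in the sample 2 pool. In C3H/HeJBir wild type it was 2013 in sample 1 and 1172 in sample 2. In C57BL/6J Il10-null it was 21.1 in sample 1 and 44.9 in sample 2, and in C57BL/6J wild type 44.3 in sample 1 and 6.38 in sample 2. The strains did not overlap, since the lowest C3H/HeJBir pool read 26.1 times the highest C57BL/6J pool. In whole colon, more cells that make the transcript and more transcript per cell cannot be told apart. The gene has 1 probe set, so no second one could be read beside it. Whether its probes match both strains equally well is not known here.

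**Figure D1:**
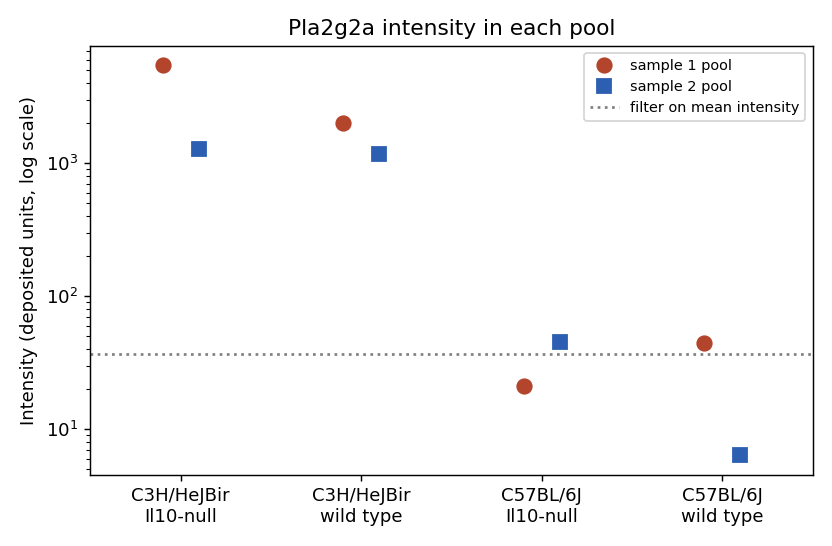
Intensity of Pla2g2a (log scale, deposited units) in each of the 8 pools, by group, with circles for sample 1 and squares for sample 2 pools. The 4 C3H/HeJBir pools lie between 1172 and 5446 and the 4 C57BL/6J pools between 6.38 and 44.9, around the dotted line at 37.0, the mean intensity required for testing.

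By group means the order was C3H/HeJBir Il10-null at 3365 ± 2944, C3H/HeJBir wild type at 1592 ± 594, C57BL/6J Il10-null at 33.0 ± 16.8 and C57BL/6J wild type at 25.4 ± 26.8 (SD, n = 2 each). Neighbours in this order that shared a strain did not differ beyond their spread, and their pools overlapped. Pools of different strains never overlapped. The mean of the C57BL/6J pools, 29.2 ± 18.8 (SD, n = 4), lay under the 37.0 set as the filter on low values, and 2 of these 4 pools lay above it. The probe set was thus tested through its C3H/HeJBir level, and no detection call is at hand to say whether the C57BL/6J readings exceed background.

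The strain comparison asked how far the genetic background sets the level of the gene. On the scale of log2(intensity + 11.07), which understates differences of low values, the average strain effect over both genotypes was 5.80 ± 0.52 (C3H/HeJBir minus C57BL/6J, SE). That is 55.8-fold, with a 95% interval of 4.60 to 7.00 on the log2 scale (limma adjusted p = 0.00129), and the level was higher in 4 of 4 C3H/HeJBir pools. The exact permutation test over the 8 pools, two-sided, gave p = 0.0286, the smallest value that 4 pools against 4 allow. Of all 7453 probe sets tested, 1.11% passed for the average strain effect in either direction, of which 0.416% were called higher and 0.698% lower in C3H/HeJBir. All 4 C3H/HeJBir pools stood above all 4 C57BL/6J pools at 2.67% of probe sets. The gene was picked with its strain difference already known from these samples, so these tests are no independent evidence.

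The strain difference was present in both genotypes. Among Il10-null pools it was 5.97 ± 0.74 on the log2 scale, or 62.6-fold (limma adjusted p = 0.0186), where 0.295% of probe sets passed. Among wild-type pools it was 5.64 ± 0.74, or 49.8-fold (limma adjusted p = 0.0160), where 0.403% passed. In all 3 strain comparisons Pla2g2a ranked second of 7453 by the log2 difference, after the probe set of Pdxdc1, which was named after its value was seen.

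The strains were balanced within each hybridisation day given in the experiment files, and the difference could be read within a day. Among the sample 1 pools it was 7.40 for Il10-null and 5.19 for wild type, and among the sample 2 pools, all of 1 day, 4.53 for Il10-null and 6.08 for wild type (log2, no test). With the day as a block the estimates stayed at 5.97 and 5.64 and the single-genotype calls were lost (limma adjusted p = 0.0716 for Il10-null and 0.0665 for wild type), while the average kept its call (adjusted p = 0.0109). The single-genotype calls were also lost without the sample 1 Il10-null pool of C3H/HeJBir (4.93, adjusted p = 0.0664), without either C57BL/6J Il10-null pool, and, for wild type, without any 1 of its 4 pools.

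**Figure D2:**
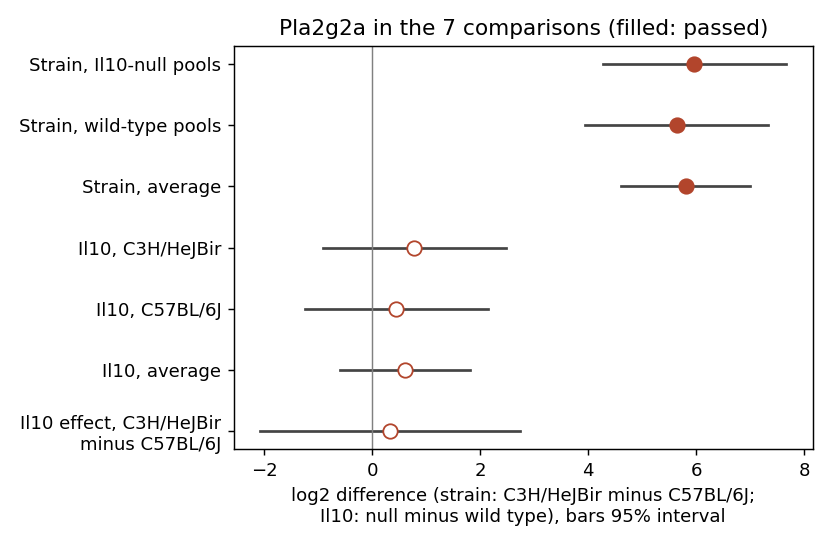
Log2 differences of Pla2g2a in the 7 comparisons, with bars for the 95% interval and filled circles where the limma adjusted p was under 0.05. The 3 strain differences lie between 5.64 and 5.97, and the intervals of the 4 comparisons that involve an Il10 effect all include 0.

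The other comparison asked whether loss of Il10 changes the level. In C3H/HeJBir the Il10-null pools were 0.78 ± 0.74 higher on the log2 scale, or 1.72-fold, with an interval of -0.92 to 2.48, and did not pass (limma adjusted p = 0.999). In C57BL/6J the difference, Il10-null minus wild type, was 0.45 ± 0.74, with an interval of -1.25 to 2.15 (limma adjusted p = 1.00). The average Il10 effect was 0.61 ± 0.52 and the difference between the strains' Il10 effects 0.33 ± 1.05, and neither passed (adjusted p = 1.00 for each). The intervals are wide, so changes inside them were not detectable with these pools. The Il10-null and wild-type pools overlapped in both strains, whereas they did not overlap at 23.3% of probe sets in C3H/HeJBir and 26.2% in C57BL/6J. Across the array, 0.0134% of probe sets passed for the Il10 effect in C3H/HeJBir (1 probe set, of the noncoding RNA Gas5, named after its value was seen) and 0% in C57BL/6J, for the average and for the difference between strains. At an unadjusted limma p under 0.05 there were 211 probe sets in C3H/HeJBir, 118 in C57BL/6J, 230 for the average and 112 for the difference.

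The C3H/HeJBir estimate rested on 1 pool. The Il10 difference was 1.43 in the sample 1 pair and 0.13 in the sample 2 pair. Without the sample 1 Il10-null pool the estimate turned to -0.26 ± 0.69 (limma adjusted p = 1.00). In C57BL/6J the 2 pairs ran in opposite directions, at -0.78 in sample 1 and 1.68 in sample 2, and without the sample 2 wild-type pool, the one with a stated age, the estimate was -0.38. The sample 1 Il10-null and wild-type pools were hybridised on different days and the sample 2 pools on the same day. With the day as a block the Il10 difference was 1.07 in C3H/HeJBir and 0.74 in C57BL/6J, and neither passed (limma adjusted p = 1.00 each). In that fit the average Il10 effect, 0.91, came from the sample 2 pools alone. The sample 1 pools informed only the difference between the strains. The only same-day Il10 differences were those of the sample 2 pairs, 0.13 in C3H/HeJBir and 1.68 in C57BL/6J. Pools of 1 group also differed more for this gene than for most others. The SD of the log2 values was 1.47 in C3H/HeJBir Il10-null, 0.55 in C3H/HeJBir wild type, 0.56 in C57BL/6J Il10-null and 1.18 in C57BL/6J wild type, against medians over all tested probe sets of 0.25, 0.23, 0.21 and 0.19.

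In both C3H/HeJBir groups the sample 1 pool was the higher one, by 4.24 times in Il10-null and 1.72 times in wild type. Sample number went together with the hybridisation day and with Xist, the RNA of the inactive X chromosome of female cells. Its range was 243 to 452 among the sample 1 pools, whereas sample 2 pools had 2.84 to 12.9. Eif2s3y, a Y-linked gene, read 242 and 318 in the sample 1 pools of C3H/HeJBir, against 113 and 39.7 in those of C57BL/6J. In sample 2 it read 391 and 411 in C3H/HeJBir, against 263 and 256 in C57BL/6J (Il10-null first in each pair). The part of these differences in the Pla2g2a values was not tested. Within the sample 2 pools, where Xist was low throughout, the strain difference of Pla2g2a was 4.53 for Il10-null and 6.08 for wild type.

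The pool with the highest Pla2g2a, sample 1 of C3H/HeJBir Il10-null, stood apart in other ways. Its mean Spearman correlation with the other 7 arrays was 0.915, against 0.931 to 0.945 for the others. The 13 tested exocrine pancreas genes, of 15 on the array, summed to an intensity of 7045 there and 2024 in the sample 2 Il10-null pool, against 3565 and 3634 in C3H/HeJBir wild type and 2363 to 5020 in the C57BL/6J pools. The 3 tested neutrophil genes, of 12 on the array, summed to 735 in it and 228 in the other pool of its group, against 258 and 231 in C3H/HeJBir wild type and 221 to 357 in C57BL/6J. S100a8, a calcium-binding protein of neutrophils, made up most of the neutrophil sum there, with 581 in this pool and 9.53 to 35.0 in the other 7. Camp, another of the 3, read 94.7 in this pool and 17.4 to 52.8 in the other 7. The remaining tested neutrophil gene went the other way and was lowest in this pool. Mpo, a defining neutrophil enzyme, lay below the filter. The cytokine inducers of the phospholipase, 6 on the array, were also below the filter by their means. Tnf read 112 in this pool and 9.15 to 45.4 elsewhere. Il1a read 32.6 against 1.59 to 13.9, Il1b 44.2 against 1.88 to 9.54 and Il17a 31.2 against 6.66 to 31.1. Il6, at 1.73 against 0.91 to 15.4, and Ifng, at 3.78 against 1.20 to 4.72, were not highest in this pool. The 8 tested B and plasma cell genes, of 9, summed to 8226 in this pool, 2882 in the other C3H/HeJBir Il10-null pool and 6463 and 6127 in C3H/HeJBir wild type, against 1968 to 3285 in C57BL/6J. The pool also had the highest sum of the 4 tested T and NK cell genes, of 12, with 399 there and 213 to 285 in the other 7. The sum of the 14 epithelial genes was highest in it too, with 38346 there and 32256 to 35766 elsewhere. So was that of the 10 tested macrophage genes, of 14, with 8620 there and 4360 to 7219 elsewhere. Its sums were the lowest for the 11 smooth muscle genes, with 11772 there and 14503 to 20562 elsewhere, and for the 14 fibroblast genes, with 4430 there and 5683 to 7602 elsewhere. The part of these cells or signals in the Pla2g2a value of the pool was not tested. Without this pool the average strain effect was 5.28 and kept its call (limma adjusted p = 0.00240).

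Paneth cell and small intestinal markers were examined because the enzyme is known from those cells. Of 26 genes, 9 were on the array, 5 were tested, and 1 of the 5 was called in the average strain effect (higher in C3H/HeJBir, as were 0.416% of all tested probe sets). For Il10 0 passed, as at most 0.0134% of all tested probe sets did, so this count says little. The gene called in the strain effect was Mmp7, the protease that activates mouse Paneth cell defensins. It read 308 and 225 in C3H/HeJBir Il10-null and 184 and 115 in C3H/HeJBir wild type, against 12.4 and 12.1 in C57BL/6J Il10-null and 7.03 and 5.84 in C57BL/6J wild type. The strains did not overlap, with a difference of 3.36 ± 0.20 (limma adjusted p = 0.000229). All 4 C57BL/6J readings lay under the filter level of 37.0, so Mmp7, like Pla2g2a, was tested through its C3H/HeJBir level. Defa24, the defensin of the list that was on the array, was not tested and read at most 18.7, with no separation of the strains. The 5 tested genes summed to 1587 to 2293 in C3H/HeJBir and 1963 to 2879 in C57BL/6J, and none was listed at 0. Their median strain difference was 0.16, against -0.02 over all tested probe sets.

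None of the other secreted phospholipases A2 on the array had a strain difference of this size. Of the 12 genes on that list, 7 including Pla2g2a were on the array, and 0 of the other 6 passed in any comparison. Of all tested probe sets at most 1.11% passed in any 1 comparison. Their median strain difference was -0.07 on the log2 scale. Pla2g2c, a close relative expressed in testis, read 95.6 and 87.8 in C3H/HeJBir Il10-null and 134 and 64.9 in C3H/HeJBir wild type, against 67.6 and 109 in C57BL/6J Il10-null and 122 and 101 in C57BL/6J wild type. All of these pools overlapped. Pla2g5, a secreted phospholipase known from macrophages and heart, read 79.2 and 34.3 in C3H/HeJBir Il10-null and 37.9 and 43.0 in wild type, against 27.1 and 94.3 in C57BL/6J Il10-null and 16.5 and 20.3 in wild type. Its strain difference was 0.41 ± 0.34 on this probe set and -0.02 on another.

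Pla2g10, the phospholipase that acts most strongly on phosphatidylcholine and is known from colon, varied little between pools. It read 987 and 1013 in C3H/HeJBir Il10-null and 1100 and 1065 in wild type, against 1104 and 1106 in C57BL/6J Il10-null and 1133 and 1154 in wild type. All 4 C3H/HeJBir pools were below all 4 C57BL/6J pools, which held for 3.81% of all probe sets, with a difference of -0.11 ± 0.15 that did not pass. Pla2g1b, the pancreatic digestive enzyme, had a strain difference of -0.44 ± 0.19 and read 184 in the pool with the highest exocrine pancreas sum. Pla2g12a differed by -0.07 ± 0.37 and Oc90, a phospholipase-like protein of the inner ear, by 0.08 ± 0.29. For the average strain effect, limma adjusted p-values of these 6 genes were 0.582 to 0.998.

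Pla2g2a lies in a cluster of secreted phospholipase genes, and its neighbours on chromosome 4 were read for the same difference. Of the 20 genes on either side in RefSeq's order, 7 were on the array and 6 were tested. For the average strain effect 0 of these 6 passed, and their differences ran from -0.49 to 0.42. Pla2g5 lies 2 genes and Pla2g2c 8 genes away. Micos10, a mitochondrial membrane protein, had the value farthest from 0, with 581 and 1027 in C3H/HeJBir Il10-null and 739 and 1005 in wild type, against 1044 and 1193 in C57BL/6J Il10-null and 1052 and 1343 in wild type (limma adjusted p = 0.643). Nbl1, a secreted antagonist of bone morphogenetic proteins, differed by 0.42 ± 0.45, Capzb, an actin capping subunit, by -0.29 ± 0.20 and Akr7a5, an aldehyde reductase, by -0.41 ± 0.21. Of all 405 other tested probe sets of chromosome 4, 5 passed for the average strain effect (1.23%), a share near the 1.11% of the array. They were probe sets of Alad, Cap1, Ybx1, Eloa and Dio1, named after their values were seen.

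**Figure D3:**
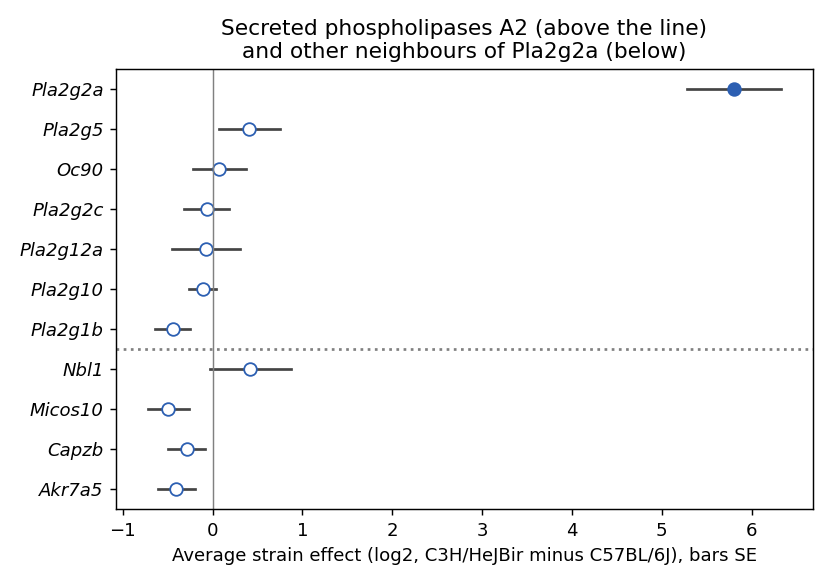
Average strain effect (log2, C3H/HeJBir minus C57BL/6J, bars SE) for Pla2g2a and the other secreted phospholipases A2 above the dotted line and for the remaining neighbours on chromosome 4 below it. Filled circles passed. Pla2g2a stands at 5.80, and the other genes lie between -0.49 and 0.42.

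The pathway around the enzyme was described from lists of genes. Over all tested probe sets 1.11% passed for the average strain effect, 0.403% among wild-type and 0.295% among Il10-null pools. At these shares a count of 0 in lists this small says little about the pathway. Among other phospholipases A2 and platelet-activating factor hydrolases 0 of 8 tested genes passed in any strain comparison (median average strain effect 0.03), and among receptors and binding partners 0 of 8 (median -0.01). Pla2g4a, the cytosolic enzyme that feeds arachidonic acid to the cyclooxygenases, had a strain difference of 0.13. Pla2g4f, another cytosolic form, was at 0.30 and Pla2g7, the plasma hydrolase of platelet-activating factor, at 0.26. Pla2r1, the receptor that binds secreted phospholipases, was below the filter.

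Downstream, 0 of 9 tested prostaglandin and thromboxane genes passed (median -0.08). The limit of small lists given above holds for this and the following counts of 0. Ptger4, the prostaglandin E2 receptor EP4, read 62.1 and 97.8 in C3H/HeJBir Il10-null and 120 and 76.5 in wild type, against 193 and 124 in C57BL/6J Il10-null and 193 and 124 in wild type. All C3H/HeJBir pools were lower, as at 3.81% of all tested probe sets, by -0.76 ± 0.25, which did not pass (limma adjusted p = 0.352). Cbr1, a reductase that converts prostaglandin E2, was at -0.53. The pools of Cbr1, and of Lta4h named below, were separated in the same direction. Ptgs2, the inducible cyclooxygenase, was below the filter. In C3H/HeJBir the Il10 difference of Hpgd, which degrades prostaglandins, was -0.68, and of Ptgr1, a prostaglandin reductase, -0.43. Of the leukotriene and lipoxygenase genes 0 of 6 passed (median 0.02), with Ggt5, which converts leukotriene C4, at 0.54 and Lta4h, which makes leukotriene B4, at -0.36. Of the lysophospholipid genes 0 of 11 passed (median -0.13), with Gpr132, a receptor linked to lysophosphatidylcholine, at 0.38 and Lypla1, a lysophospholipase, at -0.26 on the brightest of its 5 probe sets and -0.18 to -0.78 on the others. Of the Wnt and crypt base genes 0 of 11 passed (median -0.12), with Efnb1, an ephrin ligand, at -0.79 and Axin2, a Wnt target, at -0.36.

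Of the cytokines, receptors and transcription factors known to induce the phospholipase, 15 were tested and 1 was called higher in C3H/HeJBir, against 0.416% of all tested probe sets (median -0.04). It was Cd14, a co-receptor for lipopolysaccharide. C3H/HeJBir derives from C3H/HeJ, whose Tlr4, the signalling receptor for lipopolysaccharide, carries an inactivating missense mutation. Cd14 read 3830 and 2338 in C3H/HeJBir Il10-null and 1696 and 1881 in wild type, against 485 and 556 in C57BL/6J Il10-null and 344 and 341 in wild type (difference 2.42 ± 0.20, limma adjusted p = 0.000986). Nfkb2, a subunit of NF-kappa B, had the next strain difference, -0.72, which did not pass.

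Gut antibacterial proteins, the functional class of the enzyme, contained more strain differences. Of 25 genes, 21 were on the array and 17 other than Pla2g2a were tested. For the average strain effect 4 of the 17 rose and 1 fell in C3H/HeJBir, with a median of 0.97, against -0.02 over all probe sets, of which 0.416% were called higher and 0.698% lower. The counts were also 4 and 1 without sample 1 of C3H/HeJBir Il10-null and with the hybridisation day as a block. Among wild-type pools 4 of the 17 rose, where 0.215% of all probe sets were called higher, and among Il10-null pools 2 rose, where 0.161% were. For the Il10 effects 0 of 17 passed, where at most 0.0134% of all tested probe sets did, so this count says little. The median Il10 difference of the list was 0.00 in C57BL/6J and 0.16 in C3H/HeJBir. Single genes ran from -1.68 for Itln1 in C3H/HeJBir to 2.01 for Retnlb in C57BL/6J. The list was chosen with earlier results of these data known, so its counts and median are a description and no independent evidence.

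Retnlb, a goblet cell peptide that damages bacterial membranes, read 10963 and 10101 in C3H/HeJBir Il10-null and 10942 and 9363 in wild type, against 1572 and 4033 in C57BL/6J Il10-null and 745 and 514 in wild type. Itln1, a lectin for microbial sugars, read 261 and 1037 in C3H/HeJBir Il10-null and 1570 and 1844 in wild type, against 49.9 and 44.6 in C57BL/6J Il10-null and 63.5 and 64.9 in wild type. Its lowest C3H/HeJBir value was in the pool in which Pla2g2a was highest. The log2 strain differences were 3.03 ± 0.30 for Retnlb and 3.85 ± 0.37 for Itln1 (limma adjusted p = 0.00182 each). Mptx1, a pentraxin, differed by 2.84 ± 0.24 and Slpi, a protease inhibitor of mucosal secretions, by 3.85 ± 0.27. Ang, a ribonuclease, was lower in C3H/HeJBir, by -1.48 ± 0.22 (adjusted p = 0.0194), on a probe set whose name marks probes shared within a gene family. Its call was lost without any 1 of the C57BL/6J pools or of the C3H/HeJBir wild-type pools (adjusted p up to 0.0924). Reg3g, a lectin against Gram-positive bacteria, was at 1.22 and did not pass (adjusted p = 0.0957).

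**Figure D4:**
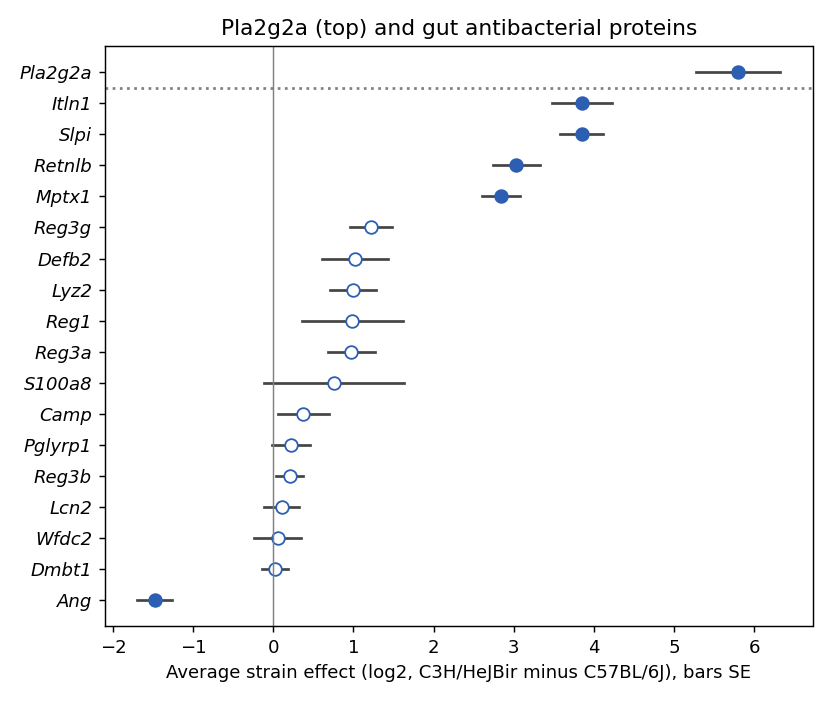
Average strain effect (log2, C3H/HeJBir minus C57BL/6J, bars SE) for Pla2g2a, above the dotted line, and the 17 other tested gut antibacterial proteins. Filled circles passed: Itln1, Slpi, Retnlb and Mptx1 between 2.84 and 3.85, and Ang at -1.48.

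Among 13 lists of cell type markers, with 113 tested genes, 3 lists contained a gene called in the average strain effect. Of all tested probe sets 1.11% were called. The genes were Mmp7 for Paneth cells, Retnlb for goblet cells and Cd14 for macrophages. Each was the only called gene of its list, of 5, 12 and 10 tested genes, and the list medians were 0.16, -0.14 and 0.08. The lists for exocrine pancreas, absorptive colonocytes, epithelium, smooth muscle, fibroblasts, neutrophils, mast cells, T and NK cells, B and plasma cells and adipocytes had 0 called. Their median strain differences ran from -0.26 for adipocytes to 0.56 for B and plasma cells. All 14 epithelial, 11 smooth muscle and 14 fibroblast genes on the array passed the filter, as did 13 of 15 exocrine pancreas genes, and passing it does not single out colon.

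The genes whose pattern over the 8 arrays was most like that of Pla2g2a were named by Pearson's r of the log2 values, among 6727 other tested probe sets with 1 gene. The 10 highest, which represent 9 genes, had r from 0.968 to 0.992, and 48 probe sets had r above 0.9. The points share strain, so r here mostly reads the strain difference. The first was Gbp2b, an interferon-inducible guanylate-binding GTPase, with r = 0.992. It read 766 and 272 in C3H/HeJBir Il10-null and 229 and 251 in wild type, against 6.08 and 25.4 in C57BL/6J Il10-null and 19.6 and 3.62 in wild type. Like Pla2g2a it peaked in sample 1 of C3H/HeJBir Il10-null and was lowest in the sample 2 C57BL/6J wild-type pool. It was picked for this likeness, so the match describes that choice.

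Slpi followed with r = 0.990, at 3541 and 1537 in C3H/HeJBir Il10-null and 2277 and 1811 in wild type, against 141 and 174 in C57BL/6J Il10-null and 133 and 120 in wild type. Its sample 1 pools were the higher ones in both C3H/HeJBir groups, as for Pla2g2a. A second probe set of Slpi had r = 0.977, whereas 2 more gave strain differences of only 0.17 and 0.25. Mmp7 had r = 0.980, Ssr1, a subunit of the translocon-associated complex, 0.976, Hebp1, a haem-binding protein, 0.975, Galnt1, an enzyme that starts mucin-type glycans, 0.973, Cd14 0.973, H2-D1, a classical MHC class I chain, 0.969, and Ifi202b, an interferon-inducible DNA-binding protein, 0.968. Since they were chosen for a pattern that is mostly the strain split, their average strain effects, 0.54 for Galnt1 to 3.90 for Gbp2b, are a description of that choice. The same holds for matches in single pools. The C57BL/6J readings of Gbp2b, Mmp7, Hebp1 and Ifi202b all lay under 37.0. Another probe set of Ssr1 gave -0.11, and 2 others of H2-D1, whose probes are shared within the class I family, gave -0.08 and -0.26. The list of most alike probe sets itself kept 5 of 10 without sample 1 and 4 without sample 2 of C3H/HeJBir Il10-null, and 6 without the sample 1 Il10-null pool of C57BL/6J.

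**Figure D5:**
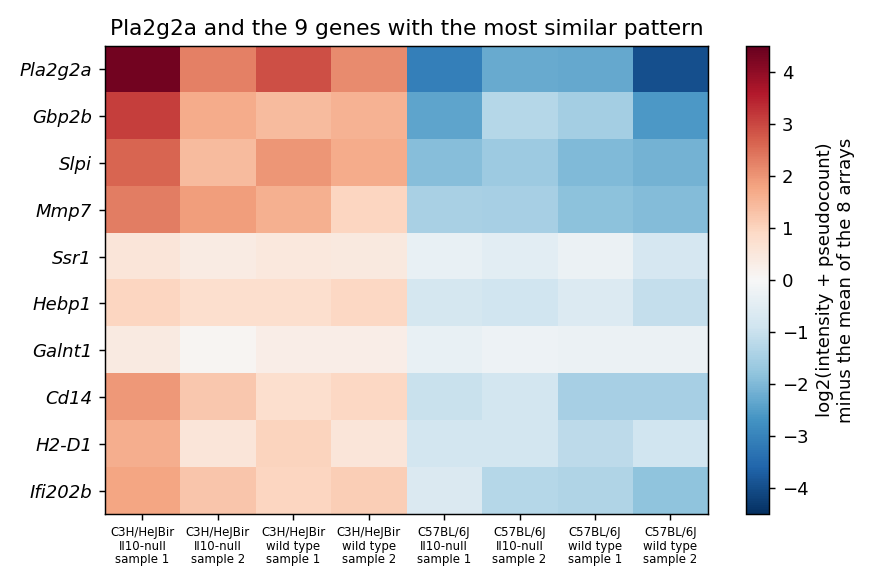
Log2(intensity + 11.07) minus its mean over the 8 arrays, from blue (below) to red (above), for Pla2g2a and the 9 genes with the highest Pearson r with it (0.968 to 0.992). Columns are pools. Every gene is red in the 4 C3H/HeJBir pools and blue in the 4 C57BL/6J pools, and Ssr1 and Galnt1 have the palest colours.

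After the mean of each strain was taken off, so that r followed differences among the pools of a strain, the 5 most alike were Cftr, the chloride channel of secretory epithelium, Gpx2, a glutathione peroxidase of the gut epithelium, Dhh, a hedgehog ligand, Pou6f1, a POU-domain transcription factor, and Chrna7, an acetylcholine receptor subunit (r = 0.952 to 0.964 over 8 arrays). Gpx2 read 4519 and 1779 in C3H/HeJBir Il10-null and 2274 and 1933 in wild type, against 1955 and 2431 in C57BL/6J Il10-null and 2238 and 1508 in wild type. Its highest and lowest values fell in sample 1 of C3H/HeJBir Il10-null and sample 2 of C57BL/6J wild type, the pools in which Pla2g2a was highest and lowest. The 5 were chosen from 6727 probe sets for this likeness, so the match and the r values describe that choice. The C57BL/6J readings of Pla2g2a that enter r, 6.38 to 44.9, lay around the filter level. Without the sample 1 Il10-null pool of C3H/HeJBir r over the 7 other arrays was 0.920 to 0.966. None of these 5 passed in the average strain effect (limma adjusted p = 0.685 to 0.999).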

How the data were processed

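The deposited intensity values, 1 per probe set and array on a linear scale from 0.03 to 12860, come from the authors' series table. How they were summarised, scaled and background-corrected is not given in the files or labels. Array medians ran from 50.1 to 62.2, and precision is limited by having 8 arrays. Tests used log2 of the intensity plus 11.07 (their 20th percentile). A mean of 37.0 or more (the 40th percentile) was required, which 7453 of 12422 probe sets met. The 4 group means were fitted with limma 3.58.1 in R 4.3.3 without a block, giving 7 two-sided comparisons, adjusted by Benjamini-Hochberg over all tested probe sets with a threshold of 0.05. The fit was tested on simulated data. Symbols come from GEO's platform annotation (10833 probe sets with 1 symbol, 396 with several, 1193 with none), of which 10817 matched RefSeq by gene number.

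A gene was read by its brightest probe set. The 9 pathway and 13 marker lists were written from general knowledge. Named genes were all secreted phospholipases, tested neighbours within 20 genes, list members that passed or had the 2 largest differences, of which the text gives a part, and the 10 and 5 most alike patterns. Genes, lists and tests were chosen with earlier results of these data known. Alternatives comprised other pseudocounts, filters, normalizations, moderation, fits, blocks and leaving out each pool. The list counts without 1 pool and with the day as a block were added after seeing the data. The experiment files gave 3 hybridisation days: day 1 held the sample 1 Il10-null pools, on day 2 were the wild-type ones of sample 1, and on day 3 every sample 2 pool.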

Additional observations from a re-analysis of the deposited data

How the results depend on the processing

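The average strain effect of Pla2g2a kept its direction in all 19 alternatives and its call in those with a test, that is all but the values within sample 1 or sample 2 pools (log2 4.63 to 6.32, limma adjusted p = 0.000138 to 0.0116). Without each pool in turn it ran from 5.28 to 6.32. The single-genotype strain effects kept their direction in 20 of 20 alternatives each, and each lost its call in 5. These were the block on the hybridisation day (5.64 for wild type, 5.97 for Il10-null), pseudocount 2.76 for Il10-null (6.29, adjusted p = 0.0599) and leaving out pools, where the lone pool left in a group is assumed to vary like the other groups: values without a pool ran from 4.80 to 6.47 (wild type) and 4.93 to 7.01 (Il10-null). The exact permutation test lost its call without any 1 pool (5.33 to 6.06), because 3 pools against 4 cannot go below p = 0.0571. No Il10 effect passed in any alternative. Without each pool, Il10 effects ran from -0.38 to 1.28 in C57BL/6J, from -0.26 to 1.82 in C3H/HeJBir and from -0.71 to 1.37 for the difference between strains, so their signs were not stable. Signs turned without C57BL/6J wild type sample 2 (-0.38 in C57BL/6J), without C3H/HeJBir Il10-null sample 1 (-0.26 in C3H/HeJBir, -0.71 for the difference), and for the difference also without C3H/HeJBir wild type sample 2 (-0.06), C57BL/6J Il10-null sample 1 (-0.07) and C57BL/6J wild type sample 1 (-0.50). The average Il10 effect ran from 0.10 to 1.13.

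The sample numbers share no stated source. Deviations of same-numbered pools correlated with r of 0.198 to 0.332 across probe sets over the 6 pairs of groups. With the sample number as a replicate block the average strain effect was 5.80 (limma adjusted p = 0.00237), 5.64 in wild type (0.0202) and 5.97 in Il10-null (0.0229), and the Il10 effects were 0.45 in C57BL/6J, 0.78 in C3H/HeJBir, 0.61 on average and 0.33 for the difference, so the block changed no call of Pla2g2a.

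Of the 10 probe sets most like Pla2g2a, 1 was among the first 10 by Spearman's rho, and 4 to 10 without each pool. The count of probe sets called in the average strain effect, 83, was 39 to 114 over the alternatives, 30 in wild type became 2 to 53 and 22 in Il10-null became 4 to 45. The C57BL/6J values lie around the filter level, with no measure of background at hand: with pseudocounts of 2.76 and 56.7 the average strain effect was 6.25 and 4.63.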
